A study of Homo sapiens with 5 samples.

Results

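Clone C4K13A of the prostate cancer line C4-2B was compared with the parental line, gene by gene, in 2 libraries a side. C4-2B is an established castration-resistant line that grew out of LNCaP, and C4K13A carries the HOXB13 K13A change, which puts alanine in place of lysine 13. The 4 libraries were chosen by their sample titles, and the fifth library of the series, from another K13A clone named C5K13A, did not enter the comparison. Only autosomal genes are described: 19255 autosomal genes passed the filter on low counts, of 20358 genes tested and of 52419 autosomal genes among the 58812 in the table. Both groups grew in C4-2B media with no other treatment named. C4K13A is a single clone, so what the K13A change does and what sets this clone apart cannot be told apart here. Whether replicates are separate cultures is not said in the labels, so the p-values reflect no more than the spread among these libraries, and that spread could be technical.

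HOXB13, a homeobox gene of the posterior body axis, encodes a transcription factor that stays on in prostate luminal cells and works together with the androgen receptor. Lysine 13 can be acetylated, and the series asks which transcripts depend on that site. Of the 100 autosomal genes that fell, 17 belong to lists, chosen with earlier results of these data known, of the amino acid response. In that response a shortage of amino acids, or trouble in protein folding, leads to phosphorylation of the initiation factor eIF2, which favours translation of the transcription factor ATF4. ATF4 pairs with C/EBP proteins and switches on amino acid transporters, synthesis enzymes, tRNA synthetases and a few secreted factors.

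The parental libraries held 57282373 and 51978974 counts, the C4K13A libraries 48442286 and 44229589, and the C5K13A library 43190276. Parental library 1 stood apart from the others: the correlation of log2(CPM + 1) across genes was 0.973 to 0.984 between it and each other library, against 0.992 between the C4K13A libraries and 0.99 between parental library 2 and C5K13A. Parental library 2 was at 0.985 with each C4K13A library, slightly above its 0.984 with parental library 1. So by this measure the parental libraries were no closer to each other than to the clone. Genes are not independent replicates, so these values only describe the libraries. Residual mitochondrial ribosomal RNA also differed between libraries, at 28.2 and 1769 CPM in parental and 63.4 and 366 CPM in C4K13A, and its part in the results was not tested. Markers of prostate luminal cells were present in each library, with a summed level of 8606 and 6354 CPM in parental and 7166 and 7000.2 CPM in C4K13A over 12 genes. Fibroblast markers summed to 9.31 and 9.999 CPM in parental and 8.03 and 6.92 CPM in C4K13A. Leukocyte markers summed to 0.948 and 0.988 CPM against 1.46 and 0.727 CPM, and endothelial markers to 7.71 and 6.84 CPM against 5.31 and 3.94 CPM.

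In all, 116 autosomal genes passed the test (adjusted p under 0.05), which is 0.602% of those tested. Of these, 16 were higher in C4K13A (0.0831%) and 100 lower (0.519%), and 112 were protein-coding. The changes were large: each of the 116 was at least 2-fold, and 8 rises and 60 falls were at least 4-fold. Each of the 116 had no overlap between the groups, which held for 45.3% of all autosomal genes tested. Without adjustment, 888 genes (4.61%) were higher and 1610 (8.36%) lower at a p under 0.05. Leaving out parental library 1 gave 184 calls, leaving out parental library 2 gave 1503, and leaving out C4K13A library 1 or 2 gave 214 or 145. The median log2 fold change over all autosomal genes tested was -0.0044. Of these genes 9540 were above 0 and 9715 below. Counts on the gene lists below are to be read beside these shares. Changes below are fitted log2 fold changes, C4K13A against parental, with their standard error, and levels are CPM, counts divided by library totals scaled with TMM factors. A gene is said to have risen or fallen only where it passed the test, and values alone are given for the others.

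**Figure D1:**
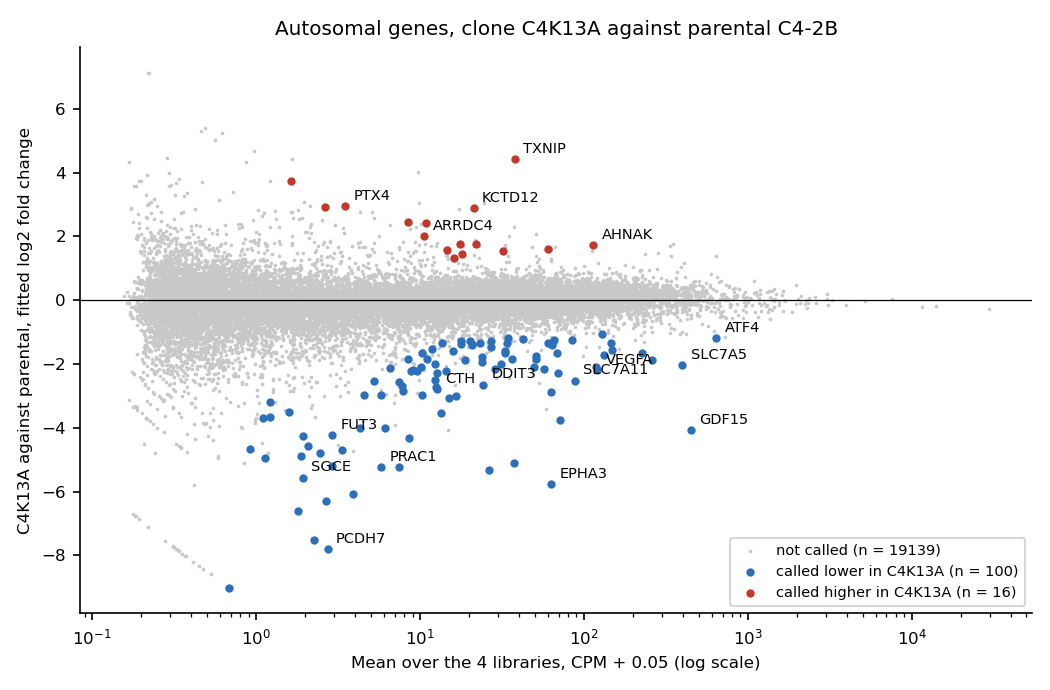
Each point is an autosomal gene, with its mean CPM over the 4 libraries on a log axis and its fitted log2 fold change, C4K13A against parental, on the vertical axis. Red points are the 16 genes called higher and blue points the 100 called lower. The falls reach further from 0 than the rises and include abundant genes such as GDF15, ATF4 and SLC7A5.

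TXNIP, which encodes an arrestin-like protein that binds thioredoxin and restrains glucose uptake, rose most (chr1:145992435-145996600, minus strand). It stood at 1.83 and 4.98 CPM in the parental libraries, 58.6 and 86.1 CPM in the C4K13A libraries and 107 CPM in C5K13A. That is a change of 4.42 ± 0.47 (adjusted p = 0.016), and both clone libraries lay more than 10-fold above both parental ones. Without parental library 2 the change was 5.31. KCTD12, an auxiliary subunit of GABA-B receptors, was at 5.25 and 4.88 CPM in parental against 41.2 and 33.4 CPM in C4K13A (2.88 ± 0.21, adjusted p = 0.00923). PTX4, a pentraxin, went from 0.694 and 0.87 to 6.51 and 5.65 CPM (2.96 ± 0.34, adjusted p = 0.0191). SLC23A1, a vitamin C transporter, rose from 1.998 and 3.2 to 12 and 16.2 CPM (2.44 ± 0.32, adjusted p = 0.0307). In these 3 genes the groups were far apart relative to the gap between replicates. The zinc finger gene ZSCAN31 stood at 4.08 and 2.65 CPM in parental against 17.3 and 19.1 CPM in C4K13A, with 2.76 CPM in C5K13A (2.43 ± 0.28, adjusted p = 0.0191).

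The other named rises were smaller. AHNAK, which encodes a giant scaffold protein under the plasma membrane, went from 62.7 and 42.5 to 147 and 202 CPM (1.73 ± 0.26, adjusted p = 0.0415). TM4SF1, a tetraspanin-like surface protein, was at 34.7 and 25 CPM in parental against 76.9 and 105 CPM in C4K13A (1.61 ± 0.24, adjusted p = 0.0428). SOCS2, a feedback inhibitor of cytokine and growth hormone signalling, was at 17.9 and 14.8 and 43.9 and 51.6 CPM (1.55 ± 0.19, adjusted p = 0.0237). SNAI2, the transcription factor Slug, rose from 6.06 and 8.5 to 19.8 and 23.5 CPM (1.57 ± 0.24, adjusted p = 0.0488). CYP2J2, an epoxygenase of arachidonic acid, changed by 1.75 ± 0.25 (adjusted p = 0.0358), and TENT5C, a poly(A) polymerase, by 1.75 ± 0.25 (adjusted p = 0.0358). Without C4K13A library 2 the adjusted p was 0.0972 for SNAI2, 0.0735 for TENT5C and 0.0655 for CYP2J2, and without parental library 1 it was 0.05004 for CYP2J2. The rises that the naming rule did not take, given here after their values were seen, were PDZRN4 (3.75), FAM3B (2.91) and MAPRE2 (1.33). FAM3B was not called without parental library 1 (adjusted p = 0.0635) or C4K13A library 2 (0.0575), nor MAPRE2 without C4K13A library 1 (0.065) or 2 (0.16).

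**Figure D2:**
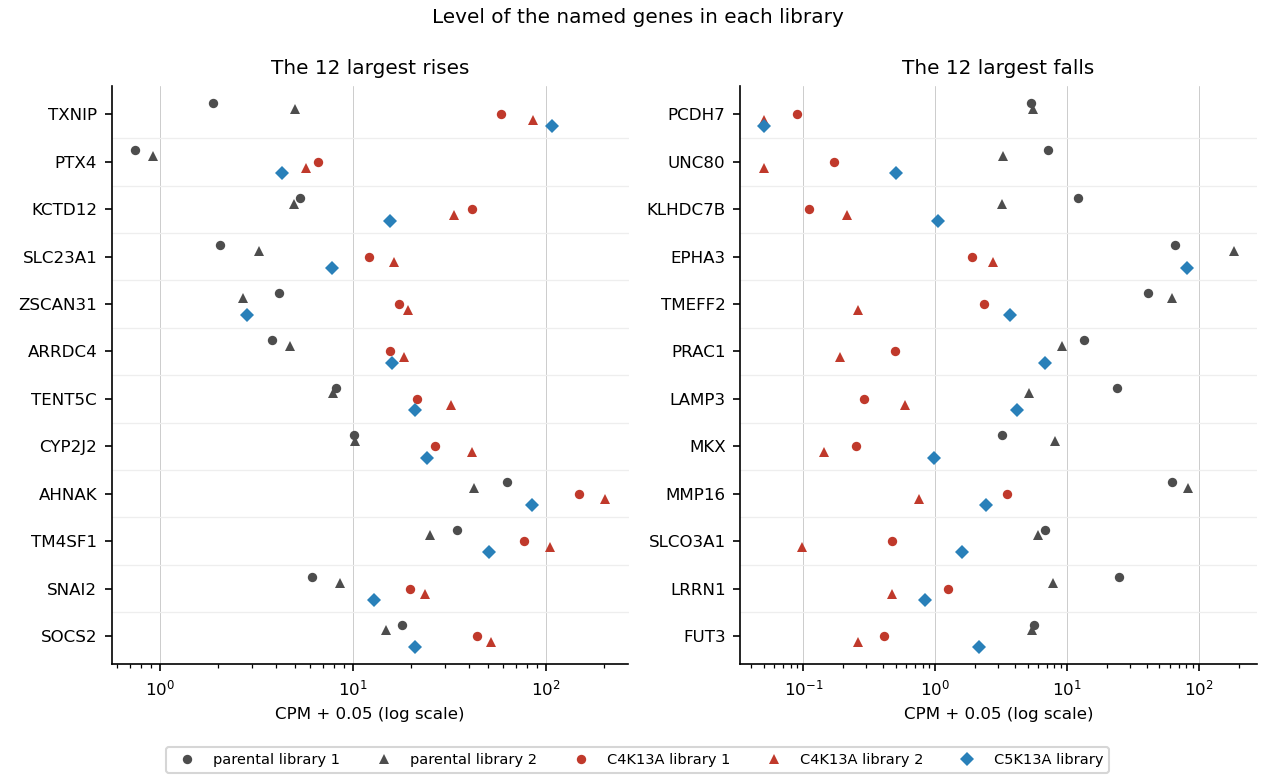
Levels of the 12 largest rises (left) and 12 largest falls (right) among called protein-coding genes with at least 5 CPM in the higher group, as CPM + 0.05 on log axes. Each symbol is a library: grey for parental, red for C4K13A and blue for the C5K13A library. In each gene both red symbols lie on the same side of both grey ones, because only genes without overlap were taken. The position of the blue symbol varies, beside the red ones for TXNIP and beside the grey ones for ZSCAN31 and EPHA3.

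TXNIP and ARRDC4 are textbook targets of MondoA (MLXIP), a glucose-sensing transcription factor that pairs with MLX at E-box elements. ARRDC4, an arrestin relative of TXNIP, stood at 3.74 and 4.66 CPM in parental against 15.5 and 18.4 CPM in C4K13A (2.01 ± 0.25, adjusted p = 0.0222). These were the 2 called genes of 8 tested on a list of alpha-arrestins and MondoA partners, whose median was -0.04. The other arrestins were at 0.03 (ARRDC1), -0.17 (ARRDC2) and -0.14 (ARRDC3). The transcripts of the factors were at 0.05 (MLXIP, adjusted p = 0.94) and -0.12 (MLX, adjusted p = 0.853). MLXIPL, the relative of MLXIP known as ChREBP, was at 3.29 and 2.09 CPM in parental against 0.941 and 0.774 CPM in C4K13A (-1.65, adjusted p = 0.16). So TXNIP and ARRDC4 rose while their list as a whole was centred near 0.

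An E-box with the letters CACGTG, searched from 250 bases before to 50 bases after the RefSeq start on both strands, was found in 9.90% of the promoters of the autosomal genes tested. Of the 13 promoters of genes called higher that the table held, those of ARRDC4 and MAPRE2 had it (15.4%), as did 10 of 76 promoters of genes called lower (13.2%). The stretch of the ARRDC4 promoter is shown because this gene rose with TXNIP, with the E-box in capitals (GRCh38.p14, chr15:97960478-97960513, plus strand, the match starting 210 bases before the start of the gene). Of the 8 promoters on the list of alpha-arrestins and MondoA partners, those of ARRDC4 and MLX had these letters and that of TXNIP did not. A match is a description of the letters and not a shown binding site.
ARRDC4: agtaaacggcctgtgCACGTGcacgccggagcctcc

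EPHA3, an ephrin receptor tyrosine kinase (chr3:89107524-89482134, plus strand), fell from 65.8 and 182 CPM in the parental libraries to 1.84 and 2.7 CPM in C4K13A (-5.77 ± 0.54, adjusted p = 0.0124). Its C5K13A level was 80.3 CPM, between the parental values. The parental libraries were themselves over 2-fold apart, and without parental library 2 the change was -4.86. PRAC1, a small prostate and distal gut gene next to HOXB13 (chr17:48721719-48722522, minus strand), was at 13.4 and 9.01 CPM in parental against 0.441 and 0.141 CPM in C4K13A, with 6.76 CPM in C5K13A. Its change was -5.23 ± 0.52 (adjusted p = 0.0136), and -6.29 without C4K13A library 1. MMP16, a membrane-type metalloproteinase, went from 62.3 and 82.6 to 3.45 and 0.704 CPM, with 2.38 CPM in C5K13A (-5.11 ± 0.63, adjusted p = 0.0222). TMEFF2, a surface protein of prostate and brain, went from 40.7 and 62.1 to 2.3 and 0.211 CPM, with 3.64 CPM in C5K13A (-5.32 ± 0.80, adjusted p = 0.0428). In MMP16 and TMEFF2 the C4K13A libraries differed from each other, and the changes were -6.68 and -7.91 without C4K13A library 1 and -4.40 and -4.48 without library 2.

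Several falls ended near the detection limit. PCDH7, a protocadherin, had 585 counts over the parental libraries and 2 over the C4K13A libraries, a ratio of 247 with an exact 95% interval of 68 to 2044, which covers counting error only (adjusted p = 0.0107). The C5K13A library had 0 counts of PCDH7. UNC80, a subunit of the sodium leak channel, was at 7.1 and 3.2 CPM in parental against 0.12 and 0 CPM in C4K13A (-6.28 ± 0.88, adjusted p = 0.0358, and -5.59 without parental library 1). In PCDH7 and UNC80, C4K13A library 2 had 0 counts, and without it the fitted changes were -6.98 and -5.40; without library 1 the fits gave -11.08 and -11.03, which depend on the prior count and are no bound. SGCE, an imprinted sarcoglycan gene, stood at 3.52 and 3.83 CPM in parental against 0.0801 and 0.0704 CPM in C4K13A, with 0 in C5K13A (-5.56 ± 0.48, adjusted p = 0.0107). FUT3, the Lewis fucosyltransferase, went from 5.55 and 5.38 to 0.361 and 0.211 CPM (-4.23 ± 0.42, adjusted p = 0.0133). IL2RB, a cytokine receptor chain that the naming rule did not take and that was chosen after its values were seen, had 139 counts in parental and 0 in C4K13A. Against a floor of 3 counts over the group it was at least 39.1-fold lower (adjusted p = 0.0327).

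The remaining named falls of the largest 12 had parental libraries that were up to several-fold apart. KLHDC7B, a Kelch-domain gene, was at 12 and 3.16 CPM in parental against 0.0601 and 0.164 CPM in C4K13A (-6.09 ± 0.83, adjusted p = 0.0344, and -4.81 without parental library 1). LAMP3, a lysosome-associated membrane protein, was at 23.8 and 5.06 and 0.24 and 0.539 CPM (-5.22 ± 0.81, adjusted p = 0.0488, and -3.70 without parental library 1). LRRN1, a leucine-rich repeat protein of neurons, was at 24.8 and 7.81 and 1.2 and 0.422 CPM (-4.31 ± 0.68, adjusted p = 0.0491, and -3.24 without parental library 1). These 3 genes were highest in parental library 1, which stood apart from the others, and each change was smaller without it. MKX, a homeobox gene of tendon, was instead highest in parental library 2, at 3.13 and 8.06 CPM in parental against 0.2003 and 0.0938 CPM in C4K13A (-5.20 ± 0.65, adjusted p = 0.0237, and -4.36 without that library). SLCO3A1, an organic anion transporter, went from 6.74 and 5.97 to 0.421 and 0.0469 CPM (-4.71 ± 0.71, adjusted p = 0.0442), with -7.00 without C4K13A library 1 and -3.91 without library 2. Leaving out the other libraries took the change as far as -6.93 for KLHDC7B, -5.94 for LAMP3, -5.26 for LRRN1 and -5.86 for MKX. None of these genes was called with limma-voom. Its adjusted p was 0.193 for KLHDC7B, 0.218 for LAMP3, 0.136 for LRRN1, 0.119 for MKX and 0.0588 for SLCO3A1.

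Transcripts of the amino acid response recurred among the falls. On 7 lists of that response (regulators, secreted factors, cysteine, serine, other synthesis, transporters and cytosolic tRNA synthetases), 99 autosomal genes were tested, and 72 of them were below 0. In this group 17 genes were called lower, which is 17.2% against 0.519% of all autosomal genes tested, and 0 were called higher with edgeR, DESeq2 or limma-voom. At an unadjusted p under 0.05 there were 49 lower and 2 higher, against 8.36% lower and 4.61% higher of all autosomal genes tested. DESeq2 called 40 lower and limma-voom 14. The median of the 99 genes was -0.53. Among all 19255 autosomal genes tested, 9715 were below 0. The lists were chosen with earlier results of these data known, so these shares describe the lists and are no test of them. For each list below in which edgeR called 0 genes, limma-voom also called 0, and the count by DESeq2 is given.

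ATF4 itself, the central factor (chr22:39519695-39522685, plus strand), was at 906 and 875 CPM in parental against 367 and 418 CPM in C4K13A, with 488 CPM in C5K13A. It changed by -1.18 ± 0.19 (adjusted p = 0.0489) and had the highest mean CPM of the called genes, a level not corrected for transcript length. The clone libraries were at less than 0.5 of the parental level, with replicates close together on both sides. The call lay near the threshold: the adjusted p was 0.252 without C4K13A library 1 and 0.16 without library 2, each time with 1 library left in that group. ATF4P3, a processed pseudogene copy of ATF4 whose reads cannot be separated from those of ATF4 with certainty, moved alike (-1.27 ± 0.18, adjusted p = 0.0358, and 0.131 and 0.119 without C4K13A library 1 and 2).

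The transcription factors and feedback proteins around ATF4 were lower together. Of 18 regulators and effectors tested, 7 were called lower, 16 were below 0 and the median was -1.24; it was -1.17 without parental library 1 and -1.23 without parental library 2. DDIT3, the stress factor CHOP, was at 51.8 and 31.5 CPM in parental against 6.67 and 6.64 CPM in C4K13A (-2.65 ± 0.27, adjusted p = 0.0147). TRIB3, a pseudokinase that restrains ATF4, was at 314 and 375 and 104 and 115 CPM (-1.65 ± 0.19, adjusted p = 0.0191, and 0.0515 without C4K13A library 1). NUPR1, a small chromatin-associated stress protein, was at 401 and 419 and 91.8 and 132 CPM (-1.87 ± 0.22, adjusted p = 0.022). In each of these genes the lower parental library was still more than 2-fold above the higher clone library. ATF3, a repressor of the same leucine zipper family, fell from 53.8 and 45.6 to 17.7 and 13.8 CPM (-1.66 ± 0.20, adjusted p = 0.0222). The count of 7 is completed by CEBPB, a dimer partner of ATF4 (-1.23 ± 0.18), and SESN2, a leucine sensor upstream of mTORC1 (-1.23 ± 0.19), both chosen for naming after their values were seen. Neither was called without C4K13A library 1 (adjusted p = 0.152 for CEBPB and 0.188 for SESN2) or without library 2 (0.101 and 0.0588).

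The kinases and the other members did not pass. CHAC1, a glutathione-degrading enzyme, was at 34.7 and 83.7 CPM in parental against 8.03 and 13.8 CPM in C4K13A (-2.44 ± 0.44, adjusted p = 0.0728). The eIF2 kinase EIF2AK3 (PERK) was at -0.44 ± 0.22 (adjusted p = 0.455) and EIF2AK4 (GCN2) at 0.09 ± 0.17 (adjusted p = 0.874). ATF5, another ATF4-linked factor, was above 0 at 0.25 ± 0.17 (adjusted p = 0.591). Transcript levels do not show whether eIF2 was phosphorylated or how much ATF4 protein was made.

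**Figure D3:**
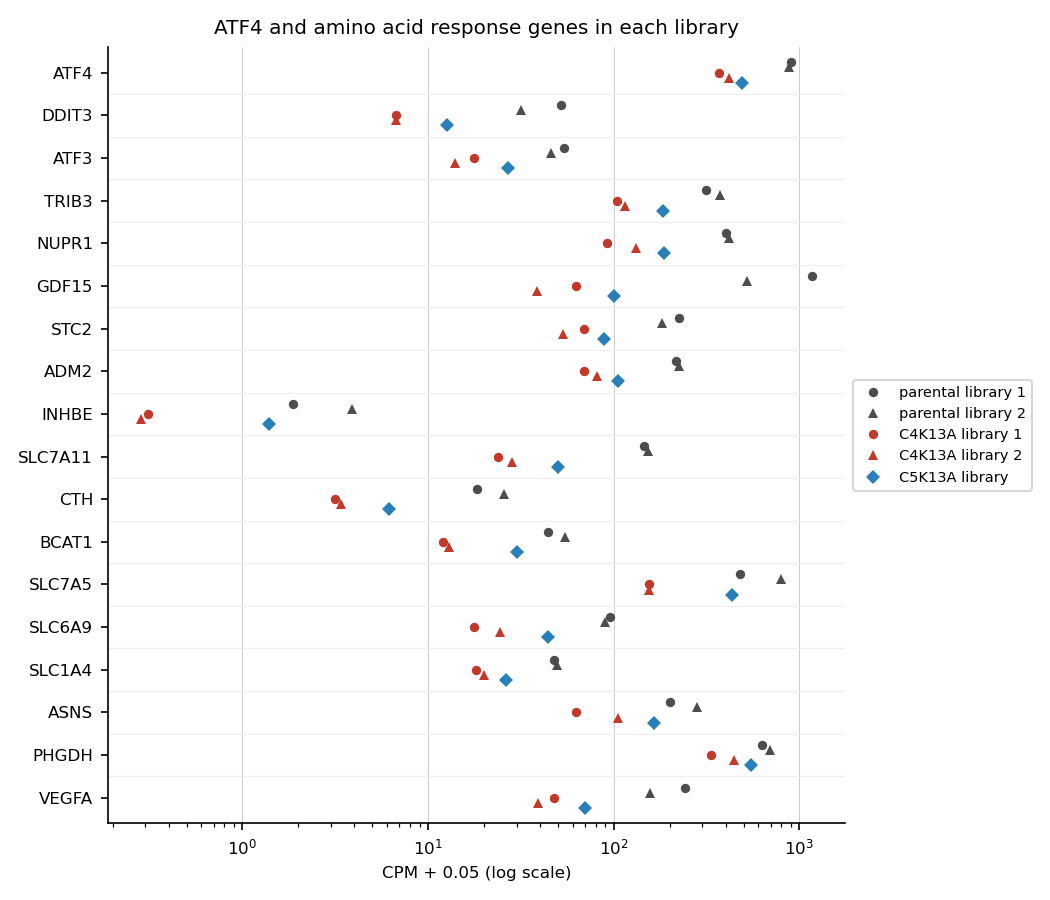
CPM + 0.05 on a log axis in each library for ATF4, its partners, secreted factors, transporters and enzymes. Red symbols (C4K13A) lie to the left of grey ones (parental) in each gene plotted, and the blue C5K13A symbol lies between them or near the red ones in most, and near the parental ones for SLC7A5 and PHGDH.

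Secreted stress factors had the lowest median of the 7 lists. Of 8 tested, 8 were below 0, 4 were called lower and the median was -2.51. GDF15, a stress cytokine that acts on the brainstem (chr19:18374731-18389176, plus strand), went from 1168 and 520.2 CPM in parental to 62.4 and 38.3 CPM in C4K13A, with 101 CPM in C5K13A (-4.07 ± 0.44, adjusted p = 0.016). Without parental library 1, which held the higher parental value, it was at -3.36. STC2, stanniocalcin 2, was at 224 and 181 and 68.8 and 53.5 CPM (-1.73 ± 0.21, adjusted p = 0.0222), and ADM2, a peptide of the calcitonin family, at 217 and 226 and 69 and 81 CPM (-1.56 ± 0.18, adjusted p = 0.0194, and 0.0678 without C4K13A library 1). INHBE, the activin E subunit, was low in every library, at 1.81 and 3.85 and 0.26 and 0.235 CPM (-3.50 ± 0.54, adjusted p = 0.0488, and -2.85 without parental library 2). FGF21 (-3.39, adjusted p = 0.102) and TSLP (-3.06, adjusted p = 0.0876) did not pass.

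VEGFA, the main angiogenic growth factor and a transcript known to answer to both hypoxia and ATF4, was among the genes lower in C4K13A (chr6:43770184-43786487, plus strand). It stood at 241 and 156 CPM in parental against 47.4 and 39 CPM in C4K13A, with 70.2 CPM in C5K13A (-2.20 ± 0.25, adjusted p = 0.0191). The groups did not overlap, and the call held without each library in turn. VEGFA was the 1 called gene of 18 tested on a hypoxia list, whose median was -0.12, and of 12 tested on a list of angiogenic ligands and receptors, whose median was -0.63. The median of the angiogenic list was -0.17 without parental library 1 and -0.39 without parental library 2. VEGFB, its relative, was at 47.1 and 28.2 CPM in parental against 13.8 and 15.4 CPM in C4K13A (-1.37, adjusted p = 0.0869). Of 23 glycolysis genes tested, 0 were called with edgeR, 3 had an unadjusted p under 0.05 (all lower), DESeq2 called 2 and the median was -0.09, with -0.32 and 0.25 without parental library 1 and 2.

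Among amino acid transporters, 3 of 15 tested were called lower and the median was -0.50 (-0.78 without C4K13A library 1). SLC7A5, the large neutral amino acid transporter LAT1, fell from 481 and 799 to 155 and 156 CPM (-2.04 ± 0.27, adjusted p = 0.0279), while C5K13A had 436 CPM. SLC6A9, the glycine transporter GLYT1, went from 95.7 and 90.2 to 17.6 and 24.3 CPM (-2.15 ± 0.21, adjusted p = 0.0133). SLC1A4, a carrier of neutral amino acids, went from 47.6 and 49.3 to 18.1 and 20.1 CPM (-1.34 ± 0.17, adjusted p = 0.0262), with an adjusted p of 0.0985 without C4K13A library 1 and 0.0532 without library 2. SLC7A6, an exchanger that shares substrates with LAT1, lay on the other side of 0 (0.75, adjusted p = 0.175).

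A gene of cystine import and a gene of cysteine synthesis were both lower. SLC7A11, the cystine importer xCT (chr4:138164097-138242349, minus strand), stood at 145 and 153 CPM in parental against 23.7 and 28.3 CPM in C4K13A, with 49.8 CPM in C5K13A (-2.52 ± 0.19, adjusted p = 0.00923). CTH, the enzyme that makes cysteine from cystathionine, was at 18.4 and 25.6 CPM in parental against 3.08 and 3.33 CPM in C4K13A (-2.78 ± 0.26, adjusted p = 0.0124). These were the 2 called genes of 13 tested on the cysteine and glutathione list, whose median was -0.08. SLC3A2, the heavy chain that carries both SLC7A11 and SLC7A5, was at 315 and 296 and 135 and 151 CPM (-1.09 ± 0.18, adjusted p = 0.0527) and missed the threshold. Of 18 targets of NRF2, the other main activator of SLC7A11, 0 were called with edgeR, 4 had an unadjusted p under 0.05 (all lower), DESeq2 called 1 and the median was -0.04.

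BCAT1, the cytosolic branched-chain aminotransferase, fell from 44.2 and 54.7 to 12 and 12.9 CPM (-1.99 ± 0.19, adjusted p = 0.0133) and was the 1 called gene of 11 enzymes of other amino acids. ASNS, asparagine synthetase, was at 201 and 282 CPM in parental against 62.9 and 106 CPM in C4K13A (-1.52 ± 0.29, adjusted p = 0.0856). The serine and one-carbon enzymes had 0 called of 14 with edgeR, but 9 had an unadjusted p under 0.05, all lower, DESeq2 called 6 and the median was -0.66. In that list PHGDH, the entry enzyme of serine synthesis, was at -0.76 ± 0.21 (adjusted p = 0.189), PSAT1, the next enzyme, at -0.98 ± 0.23 (adjusted p = 0.135) and MTHFD2, a mitochondrial folate enzyme, at -0.90 ± 0.19 (adjusted p = 0.102). Cytosolic tRNA synthetases likewise had 0 called of 20 with edgeR, with 5 lower and 1 higher at an unadjusted p under 0.05, 4 called by DESeq2 and a median of -0.33 (-0.21 without parental library 2). SARS, for serine, was at -1.30 ± 0.22 (adjusted p = 0.0616) and CARS, for cysteine, at -0.91 ± 0.19 (adjusted p = 0.108). VARS, for valine, was on the other side at 0.58 ± 0.19 (adjusted p = 0.278).

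ATF4 with a C/EBP partner is known to bind a composite C/EBP-ATF element. The letters TGATGNAA were searched on both strands in the same promoter windows of 300 bases and were found in 1.83% of 11749 promoters of tested autosomal genes. They were found in 8 of 76 promoters of genes called lower (10.5%) and in 0 of 13 of genes called higher. The 8 were ATF3, BCAT1, DNASE2, FUT1, KLHDC7B, LINC01133, S100P and SYNE1. Only ATF3 and BCAT1 of these are on the amino acid response lists. A single window was kept for each gene symbol, so any other start of a gene was not searched. The element was in 2 of 17 promoters of the ATF4 regulators and effectors, 2 of 14 of the transporters and 1 of 8 of the secreted factors. Among cytosolic tRNA synthetases the element was in 6 of 16 promoters (37.5%), although none of those genes was called. The element is shown in capitals for a called factor (ATF3), a called enzyme (BCAT1), and then for 4 members that were not called, CHAC1, ASNS, AARS1 (AARS in the table) and MTHFD1L, so that the letters can be compared. All are from RefSeq on GRCh38.p14: ATF3 at chr1:212565201-212565238, plus strand; BCAT1 at chr12:24949127-24949164, minus strand; CHAC1 at chr15:40953247-40953284, plus strand. ASNS lies at chr7:97872454-97872491, minus strand, AARS1 at chr16:70289671-70289708, minus strand and MTHFD1L at chr6:150866342-150866379, plus strand.
ATF3: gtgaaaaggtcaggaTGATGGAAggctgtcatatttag
BCAT1: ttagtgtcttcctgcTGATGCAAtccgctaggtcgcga
CHAC1: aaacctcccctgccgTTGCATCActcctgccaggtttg
ASNS: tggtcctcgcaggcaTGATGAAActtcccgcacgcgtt
AARS1: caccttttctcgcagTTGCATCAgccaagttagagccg
MTHFD1L: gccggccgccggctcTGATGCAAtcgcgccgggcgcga

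A single stretch with these letters lies in the promoter windows of both the fucosyltransferase gene FUT1, which was called lower, and FGF21. FGF21 is read in the other direction (chr19:48755455-48755492, plus strand) and was not called. FUT1, the H-antigen fucosyltransferase, went from 23.2 and 26.7 to 10.9 and 9.92 CPM (-1.26 ± 0.20, adjusted p = 0.0488, and 0.117 and 0.18 without C4K13A library 1 and 2); it was chosen after its values were seen.
FGF21: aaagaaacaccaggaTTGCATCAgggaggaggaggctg
ATF4 has an E-box and no C/EBP-ATF element in its own window (chr22:39520462-39520497, plus strand). The letters CCAATAAA, a form of the site known for HOXB13, were in 0.749% of the promoters of tested genes, in 0 of 76 of the genes called lower and in 0 of 13 of those called higher, which says only that they are not in these windows.
ATF4: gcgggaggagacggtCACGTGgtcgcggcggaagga

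Neighbouring programmes of the stress response held no gene past the threshold with edgeR. At an unadjusted p under 0.05, 8.36% of all autosomal genes tested were lower and 4.61% higher. Of 24 chaperones and degradation factors of the endoplasmic reticulum, 0 were called with edgeR, 3 had an unadjusted p under 0.05 (all lower), DESeq2 called 1 and the median was -0.04. HERPUD1, a degradation factor, was at -0.75 ± 0.20 (adjusted p = 0.173). Of 14 heat shock proteins 0 were called with edgeR, 3 were higher at an unadjusted p under 0.05, DESeq2 called 0 and the median was 0.32 (0.19 without parental library 1 and 0.19 without C4K13A library 2), with DNAJB1, a co-chaperone, at 0.51 ± 0.19 (adjusted p = 0.316). Lysosome and autophagy genes had 20 of 25 below 0 and 0 called with edgeR, with 6 lower at an unadjusted p under 0.05, 2 called by DESeq2 and a median of -0.28 (-0.43 without C4K13A library 2). GABARAPL1, an autophagosome protein, was at -1.59 ± 0.38 (adjusted p = 0.141).

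Of the genes that the series is about, VEGFA fell, as given above, while HOXB13, TNK2 and KLK3 missed the threshold in the main fit. HOXB13 (chr17:48724763-48729178, minus strand) was at 339 and 450.3 CPM in parental against 345 and 349 CPM in C4K13A (-0.19 ± 0.20, adjusted p = 0.759, and 0.04 without parental library 2). Gene counts carry no information on the K13A substitution, and the genotype was not checked here. TNK2, the tyrosine kinase ACK1 (chr3:195863364-195911945, minus strand), was at 120.1 and 71.3 CPM in parental against 64.7 and 43.2 CPM in C4K13A (-0.83 ± 0.30, adjusted p = 0.304, and -0.39 without parental library 1). TNK2 passed the test without parental library 2 (-1.15, adjusted p = 0.0219). KLK3, the gene of prostate-specific antigen, had overlapping groups, at 3118 and 1868 and 2643 and 2669 CPM (0.09 ± 0.27, adjusted p = 0.925, and -0.23 without parental library 2). HOXB13 lies on chromosome 17 and TNK2 on chromosome 3, the 2 chromosomes whose protein-coding genes had medians below 0 in C4K13A (-0.30 and -0.25), and the part of that shift in these 2 values was not tested.

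Androgen-activated genes had 0 called of 24 with edgeR, with 5 higher and 1 lower at an unadjusted p under 0.05, 4 called by DESeq2 and a median of 0.08, which lay between 0.14 and 0.32 with 1 library left out. FKBP5, a chaperone of steroid receptors, was at 158 and 221 CPM in parental against 534 and 455 CPM in C4K13A (1.39 ± 0.22, adjusted p = 0.0526). KLK4, a prostate protease, was at -1.01 ± 0.34 (adjusted p = 0.278). Androgen-repressed genes had 8 of 9 below 0 and 0 called with edgeR, with 7 lower and 1 higher at an unadjusted p under 0.05, 3 called by DESeq2 and a median of -2.08, which was -1.87 without parental library 1 and -1.38 without parental library 2. UGT2B17, which glucuronidates androgens and shares sequence with UGT2B15, was at 0.728 and 1.01 CPM in parental against 0.0401 and 0.0469 CPM in C4K13A, but at 6.22 CPM in C5K13A (-4.25 ± 0.72 for C4K13A, adjusted p = 0.061). UGT2B15 followed the same order, at 1.32 and 2.27, 0.401 and 0.164 and 6.17 CPM (-2.64 ± 0.59, adjusted p = 0.121). Reads of these near-identical genes are uncertain. Beside the counts of both androgen lists, 8.36% of all autosomal genes tested were lower and 4.61% higher at an unadjusted p under 0.05.

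Lineage lists held few calls. Over all autosomal genes tested, 4.61% were higher and 8.36% lower at an unadjusted p under 0.05. Of 17 luminal lineage factors 0 were called with edgeR, 2 were higher and 2 lower at an unadjusted p under 0.05, DESeq2 called 4 and the median was 0.18, with KRT8, a luminal keratin, at 0.73 ± 0.19 (adjusted p = 0.17). Of 6 basal markers tested SNAI2 was called, and KRT5, KRT14 and TP63, which define basal cells, did not pass the filter on low counts. SNAI2 was also the 1 called gene of 11 tested mesenchymal genes, whose median was -0.37. VIM, vimentin, was at 18.9 and 17.6 CPM in parental against 6.47 and 9.43 CPM in C4K13A, with 39.9 CPM in C5K13A (-1.20 ± 0.25 for C4K13A, adjusted p = 0.102). Of 10 neuroendocrine markers tested 0 were called with edgeR, with 1 higher and 3 lower at an unadjusted p under 0.05 and 2 called by DESeq2. PEG10, a retrotransposon-derived imprinted gene, was at 54.4 and 159 CPM in parental against 15 and 4.85 CPM in C4K13A, with 0.715 CPM in C5K13A (-3.42 ± 0.65 for C4K13A, adjusted p = 0.0817). Of 23 HOX genes tested 0 were called with edgeR, with 5 higher and 3 lower at an unadjusted p under 0.05 and 2 called by DESeq2. HOXB9, near HOXB13, was at -0.94 ± 0.22 (adjusted p = 0.143) and HOXC6 at 0.69 ± 0.17 (adjusted p = 0.154).

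**Figure D4:**
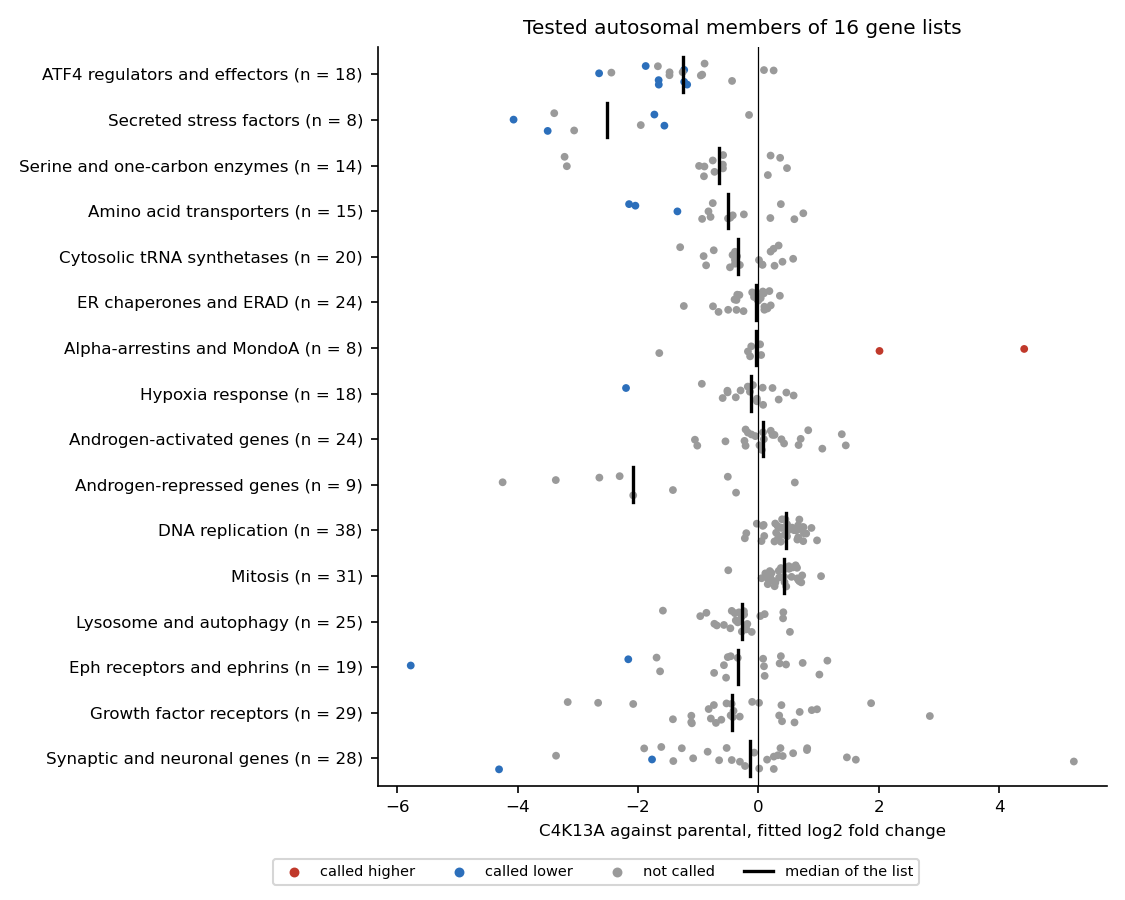
Fitted log2 fold change, C4K13A against parental, of each tested autosomal member of 16 gene lists (1 point a gene, black bar for the median of a list). Blue points were called lower and red points higher. The regulators of ATF4, the secreted stress factors and the androgen-repressed genes lie left of 0, while DNA replication and mitosis genes cluster a little to the right with no called member.

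Of 19 Eph receptors and ephrins tested 2 were called lower, against 0.519% of all autosomal genes tested. They were EPHA3 and EPHA6, both encoded on chromosome 3. The median of the list was -0.34, and leaving out 1 library put it between -0.52 (without C4K13A library 2) and 0.0037 (without C4K13A library 1). EPHA6 was at 44.9 and 48.7 CPM in parental against 9.86 and 11.1 CPM in C4K13A, with 53.9 CPM in C5K13A (-2.16 ± 0.18, adjusted p = 0.0107), so the C4K13A libraries alone were low. EFNB2, a ligand of EPHB receptors, was at 1.15 (adjusted p = 0.104). ROBO1, the receptor for SLIT guidance cues and also on chromosome 3, fell from 18.9 and 30.1 to 3.12 and 1.06 CPM (-3.54 ± 0.50, adjusted p = 0.0358, and -4.53 without C4K13A library 1) and was the 1 called gene of 30 on the axon guidance list. Among 22 protocadherins and cadherins PCDH7 fell and PCDHGC3 rose, from 9.21 and 9.96 to 28.6 and 24.3 CPM (1.46 ± 0.20, adjusted p = 0.0344, and 0.0837 without C4K13A library 1). PCDHGC3 shares its last exons with the other genes of its cluster, so its counts are uncertain.

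Neuronal and signalling genes followed. The share called lower over all autosomal genes tested was 0.519%. NRXN3, a presynaptic adhesion protein, went from 35.9 and 37.7 to 8.45 and 13.2 CPM (-1.77 ± 0.25, adjusted p = 0.0358, and 0.0524 without C4K13A library 1); with LRRN1 it made the 2 called of 28 synaptic and neuronal genes. PDE10A, a phosphodiesterase of both cyclic nucleotides, fell from 28.6 and 30.2 to 8.85 and 7.11 CPM while C5K13A had 28.2 CPM (-1.88 ± 0.21, adjusted p = 0.0165). BMP7, a bone morphogenetic protein, fell from 13.7 and 27.9 to 4.47 and 2.81 CPM with 21.5 CPM in C5K13A (-2.51 ± 0.40, adjusted p = 0.0491, and -1.91 without parental library 2), the 1 called of 33 TGF-beta and BMP genes. MDK, the heparin-binding growth factor midkine, was at 197 and 220.5 CPM in parental against 74.6 and 91.1 CPM in C4K13A (-1.33 ± 0.19, adjusted p = 0.0358, and 0.157 and 0.0575 without C4K13A library 1 and 2). COLCA1, a transcript antisense to COLCA2 whose reads cannot be separated from it where strand is unknown, fell from 161 and 104 to 9.9 and 9.73 CPM (-3.75 ± 0.26, adjusted p = 0.00923).

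Growth factor receptors and their substrates had 0 called of 29 with edgeR, but 11 were lower and 5 higher at an unadjusted p under 0.05, against 8.36% lower and 4.61% higher of all autosomal genes, DESeq2 called 6 and the median was -0.44, with -0.22 and -0.66 without parental library 1 and 2. The insulin receptor substrates were at -2.66 ± 0.46 (IRS2, adjusted p = 0.065) and -1.10 ± 0.21 (IRS1, adjusted p = 0.0799). IRS2 stood at 39.2 and 16.8 CPM in parental against 5.79 and 3.05 CPM in C4K13A. The immediate-early genes had 18 of 24 below 0, 0 called with edgeR, and 6 lower and 3 higher at an unadjusted p under 0.05, with 2 called by DESeq2 and a median of -0.44, which became -0.12 without parental library 1 and -0.24 without parental library 2. DUSP4, a MAP kinase phosphatase, was at 156 and 151 CPM in parental against 65.8 and 24.6 CPM in C4K13A, with 132 CPM in C5K13A (-1.76 ± 0.41 for C4K13A, adjusted p = 0.13).

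Proliferation genes lay slightly above 0 as a group with no gene past the threshold. For scale, 9540 of all 19255 autosomal genes tested were above 0, and 4.61% were higher and 8.36% lower at an unadjusted p under 0.05. Of 38 DNA replication genes tested, 35 were above 0, 0 were called with edgeR, 13 were higher at an unadjusted p under 0.05, DESeq2 called 3 and the median was 0.46. That median was 0.18 without parental library 1 and 0.80 without parental library 2, so its size rests on which parental library is used. CLSPN, a checkpoint mediator, was at 18.2 and 23.9 CPM in parental against 42.2 and 40.6 CPM in C4K13A (0.97 ± 0.20, adjusted p = 0.0954), and RRM2, a ribonucleotide reductase subunit, at 0.76 ± 0.19 (adjusted p = 0.153). Of 31 mitosis genes 30 were above 0, 0 were called with edgeR, 7 were higher and 1 lower at an unadjusted p under 0.05, DESeq2 called 0, and the median of 0.43 became 0.16 without parental library 1 and 0.77 without parental library 2. CDK1, the mitotic kinase, was at 72.9 and 188 CPM in parental against 256 and 280.2 CPM in C4K13A (1.04 ± 0.39, adjusted p = 0.326). TOP2A, the topoisomerase of dividing cells, was the exception below 0 at -0.50 (adjusted p = 0.371) and lies on chromosome 17.

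The other lists centred near 0. Their counts stand beside 4.61% higher and 8.36% lower of all autosomal genes tested at an unadjusted p under 0.05. Medians ran from -0.00 for 34 genes of the acetylation machinery, over -0.12 for 22 interferon-stimulated genes and -0.02 for 15 antigen presentation genes, to 0.09 for 28 respiratory chain genes and 0.12 for 22 cholesterol synthesis genes, and edgeR called 0 genes in each of these lists. At an unadjusted p under 0.05 these lists held 6, 3, 2, 0 and 7 genes, and DESeq2 called 2, 1, 0, 0 and 1. Without parental library 1 and 2 the median was -0.13 and 0.39 for the respiratory chain and -0.03 and 0.29 for cholesterol synthesis, so both signs turned with the parental library. Ribosome biogenesis had 19 of 26 above 0, 0 called with edgeR, 3 at an unadjusted p under 0.05, 1 called by DESeq2 and a median of 0.22 (0.13 without parental library 1 and 0.33 without parental library 2). WNT genes had 0 called of 30 with edgeR, 8 at an unadjusted p under 0.05, 2 called by DESeq2 and a median of -0.09. NOTCH genes had 0 called of 21 with edgeR, 3 at an unadjusted p under 0.05, 2 called by DESeq2 and a median of 0.12, with HES1, a target of the pathway, at 0.78 ± 0.19 (adjusted p = 0.153). Steroid enzymes had 0 called of 13 with edgeR, 4 at an unadjusted p under 0.05, 3 called by DESeq2 and a median of -0.06. Metallothioneins and zinc transporters had 0 called of 19 with edgeR, 3 at an unadjusted p under 0.05, 1 called by DESeq2 and a median of 0.08, with SLC30A4, a zinc exporter of prostate cells, at 282 and 337 CPM in parental against 129 and 179.7 CPM in C4K13A (adjusted p = 0.118).

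Genes of chromosomes 3 and 17 were lower as a whole in C4K13A, given here as medians with no test. Over protein-coding genes with a mean of at least 1 CPM, the median log2 fold change was -0.30 on chromosome 17, where 597 of 714 genes were below 0, and -0.25 on chromosome 3, where 542 of 669 were. The medians of the other autosomes lay between 0.0063 (chromosome 16) and 0.14 (chromosome 6), and that of all autosomes was 0.033. The shift ran along the full length: in bins of 10 Mb, 9 of 9 on chromosome 17 and 16 of 16 on chromosome 3 had a median below 0. It also appeared in each library pair, with 9 of 9 bins on chromosome 17 and 14 of 16 on chromosome 3 below 0 in all 4 pairs of a C4K13A and a parental library. C5K13A did not show it: against parental library 1 and 2 its medians were 0.14 and 0.042 on chromosome 17 and 0.15 and 0.022 on chromosome 3. Gene counts do not measure DNA copies, and copy number was not tested.

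**Figure D5:**
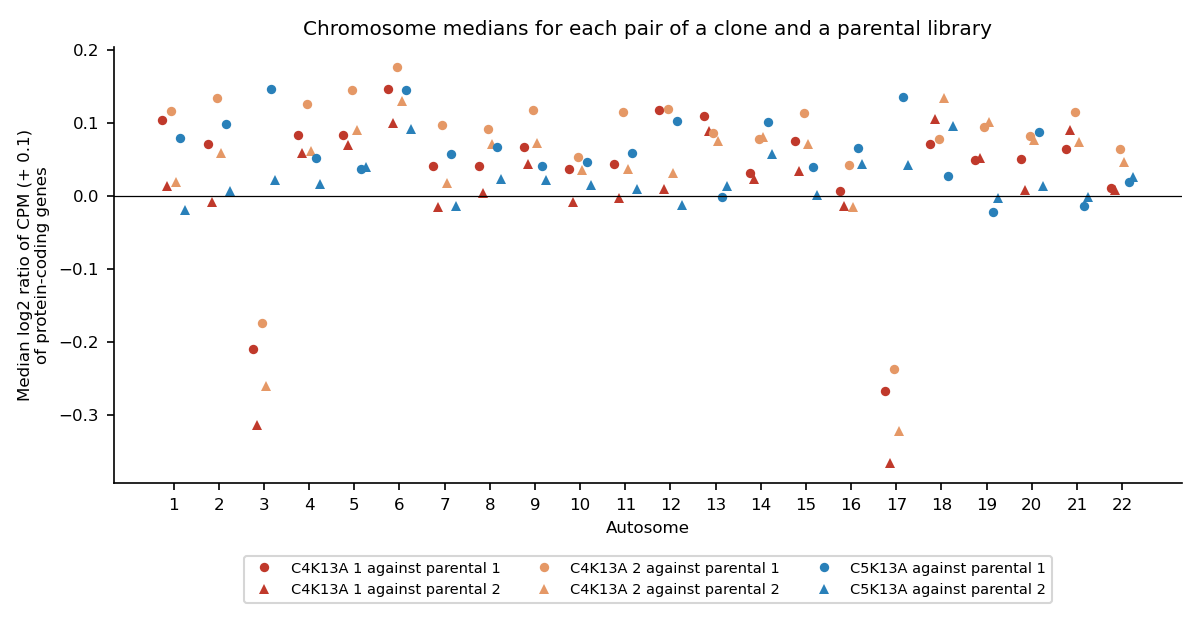
Median log2 ratio of CPM (+ 0.1) over protein-coding genes of each autosome, 1 symbol for each pair of a clone and a parental library, red and orange for C4K13A and blue for C5K13A. Chromosomes 3 and 17 lie below -0.15 in all 4 pairs with C4K13A, and the other autosomes and both pairs with C5K13A lie near or above 0.

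Segments of other chromosomes moved in either direction. On chromosome 16 between 50 and 70 Mb the median of 124 genes was 0.35, with 18 below 0, and C5K13A was at -0.059 and -0.018 against the parental libraries. On chromosome 6 between 0 and 40 Mb the median of 277 genes was 0.31, with 56 below 0, and C5K13A was similar there at 0.31 and 0.23. Other segments were lower in all 4 pairs with C4K13A. On chromosome 6 between 40 and 50 Mb, where KLC4, PTK7, GTPBP2 and VEGFA lie, the median of 68 genes was -0.18. There 50 were below 0, and C5K13A was at 0.075 and 0.061. On chromosome 16 between 80 and 90 Mb the median of 68 genes was -0.17, with 48 below 0, and C5K13A was at -0.17 and -0.12. These segments were chosen after the bins were seen and are not a full list. The weakest called fall was -1.34 on chromosome 3 and -1.19 on chromosome 17. No called fall on any autosome was smaller than 1.066 in size, so the calling threshold alone puts called falls beyond the medians of both chromosomes. The part of the chromosome shift in these falls was not tested. Chromosome 3 held 11 called genes, 10 of them lower (0.994% of its tested genes called), and chromosome 17 held 10, all lower (0.852%).

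Some called genes lie next to each other. On chromosome 12, INHBE, DDIT3 and B4GALNT1 fell within chr12:57452323-57633355, where 10 of 12 tested genes were below 0 and the 9 uncalled ones had a median of -1.13. B4GALNT1 was not called without C4K13A library 1 (adjusted p = 0.112). On chromosome 6, KLC4, PTK7, GTPBP2 and VEGFA fell within chr6:43040777-43786487, where 20 of 24 tested genes were below 0, the 20 uncalled ones with a median of -0.20. KLC4 was not called without parental library 1 (adjusted p = 0.0553) or without C4K13A library 1 (0.102) or 2 (0.099). On chromosome 16, the sodium channel genes SCNN1G (-4.02 ± 0.34, adjusted p = 0.0107) and SCNN1B (-3.69 ± 0.57, adjusted p = 0.0488), which encode subunits of the same epithelial channel, fell as neighbours; SCNN1B was not called without parental library 1 (adjusted p = 0.116). Where the strand setting is unknown, reads that run over a gene's end or from its antisense partner count for either, so neighbours are not independent. These runs were chosen after their values were seen.

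Clone C5K13A was set against C4K13A in a fit of all 5 libraries, which takes the single C5K13A library to be as variable as the other groups. Of 21497 autosomal genes 14 were called (0.0651%), 5 lower and 9 higher in C5K13A; leaving out parental library 1 or 2 gave 147 or 130 calls and leaving out C4K13A library 1 or 2 gave 46 or 72. With the stricter filter (5 CPM) edgeR called 0 genes, with 811 at an unadjusted p under 0.05, so each call between the clones that follows ends there. Of the genes that changed in C4K13A against parental, EPHA3 (5.15 ± 0.54, adjusted p = 0.0342), EPHA6 (2.36 ± 0.21, adjusted p = 0.0246), PRAC1 (4.49 ± 0.53, adjusted p = 0.0461), DPYSL5, an axonal collapsin-response protein (2.82 ± 0.32, adjusted p = 0.0430), and LGALS3BP, a secreted galectin-binding protein (2.26 ± 0.25, adjusted p = 0.0430), were higher in C5K13A than in C4K13A. LGALS3BP stood at 15.8 and 16.8 CPM in parental against 3.69 and 3.94 CPM in C4K13A, with 18.2 CPM in C5K13A, so C4K13A alone was low. DPYSL5 had the same order, at 10.3 and 15.1, 2.16 and 2.16 and 15.3 CPM. PDZRN4, a ubiquitin ligase gene, had 14 and 10 counts in parental, 123 and 148 in C4K13A and 0 in C5K13A (adjusted p = 0.0461 between the clones). The difference between the clones did not pass for TXNIP (0.57 ± 0.47, adjusted p = 0.945), VEGFA (0.70 ± 0.29, adjusted p = 0.765), GDF15 (1.00 ± 0.45, adjusted p = 0.795), SLC7A11 (0.94 ± 0.22, adjusted p = 0.332) or ATF4 (0.31 ± 0.22, adjusted p = 0.913), which does not show that the clones are alike. VIM was higher in C5K13A than in C4K13A (2.33 ± 0.27, adjusted p = 0.0461). LGALS3BP, DPYSL5, PDZRN4 and VIM were chosen for naming after their values were seen.

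The calls differed in how firmly they held. Each of the 116 kept its direction when any of the 4 libraries was left out. Groups without overlap fix that outcome in advance, so it is no support. Of the 116, 98 remained called with RLE factors, 60 with limma-voom and 47 with the stricter filter, where 95 were tested. Over 14 alternatives, 15 genes were called in each: TXNIP and KCTD12 among the rises, and PCDH7, EPHA3, PRAC1, FUT3, GDF15, SCNN1G, COLCA1, BCL11B, MYH14, CTH, SLC7A11, ATP1B1 and EPHA6 among the falls. Of the calls given above, SNAI2, LAMP3, LRRN1, ATF4, INHBE, BMP7, SCNN1B, FUT1, MAPRE2 and KLC4 were not called with RLE factors. Other alternatives lost more. Among the 51 called genes that the naming rule took, 6 missed the threshold with RLE factors, 11 with upper-quartile factors and 14 with limma-voom. With the stricter filter 15 of those tested missed it, and with a minimum fold of 2 it was 39. UNC80 was not called with limma-voom (adjusted p = 0.110), nor TMEFF2 with upper-quartile factors (0.0681). The naming rule also took 66 genes that missed the threshold, and of these 39 passed it without parental library 2, 7 without parental library 1 and 5 and 3 without C4K13A library 1 and 2.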

How the data were processed

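Per the labels' protocols, total RNA of 5 libraries was treated by the RiboErase method and run on a HiSeq. The authors deposited whole-number read counts per Ensembl gene, made with bcl2fastq, STAR 2.5 and featureCounts 1.4.6-p5 of Subread, per the submitters' processing notes. Build, annotation release, strand setting and the handling of multi-mapping reads are each not given in the sources used here. So antisense partners and near-identical copies cannot be told apart. Symbols, biotypes and positions were taken by ID from GENCODE v29 (GRCh38), which held 55297 of 58812 IDs. Groups and replicate numbers came from the sample titles, and 4 libraries entered the comparison.

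The main test was edgeR 4.0.16 in R 4.3.3 (filterByExpr with a minimum count of 10, TMM factors, glmQLFit and glmQLFTest, which leaves 2 residual degrees of freedom), with Benjamini-Hochberg adjustment over all 20358 genes tested and a threshold of 0.05. Standard errors were taken as |log2 fold change| over the square root of F. C5K13A against C4K13A came from a fit of 3 groups. Floors of 3 counts and exact 95% intervals cover counting error only, since the reads carry no molecular identifiers and may repeat molecules. Alternatives were no filter, a filter at 5 CPM, RLE or upper-quartile factors, leaving out genes of mitochondrial, small and ribosomal RNA, a test against a minimum fold of 2, a fit of 3 groups, a replicate block, DESeq2 1.42.0, limma-voom (limma 3.58.1) and leaving out each library. Of these tests, only the main one was run on simulated counts, and the outcome is not given here. Promoter sequences are from RefSeq (GRCh38.p14).

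The members and the 54 gene lists were chosen with earlier results of these data known. Named were HOXB13, TNK2, VEGFA and KLK3. The rule then took the 12 largest rises and 12 largest falls among called protein-coding genes without overlap that reached 5 CPM in the higher group, and the 8 called genes of highest mean CPM. It added up to 3 noncoding genes each way, and from each list up to 4 called members or 2 uncalled ones. Other names were chosen after their values were seen. Genes on X, Y and mitochondria were tested and are not described. One result that the naming rule took is not reported here.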

Additional observations from a re-analysis of the deposited data

Results flagged for a closer look

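In 8 named genes the C4K13A effect differed from that of C5K13A by the test between the clones (edgeR, 3-group fit), each given as C5K13A minus C4K13A on the log2 scale. EPHA3 differed by 5.15 (adjusted p = 0.0342), PRAC1 by 4.49 (adjusted p = 0.0461), EPHA6 by 2.36 (adjusted p = 0.0246) and UGT2B17 by 7.08 (adjusted p = 0.0246). In EPHA3, PRAC1 and EPHA6 the C4K13A libraries were low and C5K13A was near the parental level, while UGT2B17 was low in C4K13A and above parental in C5K13A. LGALS3BP differed by 2.26 (adjusted p = 0.0430), DPYSL5 by 2.82 (adjusted p = 0.0430) and VIM by 2.33 (adjusted p = 0.0461). LGALS3BP and DPYSL5 were low in C4K13A and near parental in C5K13A, and VIM was above both parental libraries in C5K13A. PDZRN4 had 0 counts in C5K13A, so its fitted -10.18 (adjusted p = 0.0461) depends on the prior count and is no bound. With the stricter filter 7 of the 8 were not called (adjusted p from 0.136 to 0.244) and PDZRN4 was not tested. Each difference rests on 1 C5K13A library, and its cause was not tested.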

How the results depend on the processing

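The number of autosomal genes called (116, with 16 higher and 100 lower) depended on the test. It was 1264 without a filter (381 higher, 883 lower), 47 with the stricter filter (6, 41), 729 with DESeq2 (200, 529), 60 with limma-voom (9, 51) and 19 when tested against a minimum fold of 2 (2, 17). Leaving out 1 library gave 145 to 1503 calls, 23 to 633 higher and 122 to 870 lower, with the most without parental library 2 (1503). With a library left out, the lone library of its group is assumed to vary like the others. A fit with a replicate block called 826 genes (259 higher, 567 lower), TNK2 among them (adjusted p = 0.0259), and 39 of the 66 named genes that missed the threshold; the labels give the numbers no meaning beyond names, the deviations of same-numbered libraries correlated with 0.278 over 2 pairs, and the block also splits the libraries by residual mitochondrial ribosomal RNA. For C5K13A against C4K13A the 14 calls (9 higher, 5 lower) became 164 with DESeq2 (96, 68) and 46 to 147 with 1 library left out (28 to 90 higher, 18 to 57 lower). With the stricter filter edgeR called 0 there (0 higher, 0 lower), with 811 genes at an unadjusted p under 0.05. Signs turned in 5 values of named genes. Dropping parental library 1 put HOXB13 at -0.37 and KLK3 at 0.51; dropping parental library 2 put them at 0.036 and -0.23, the ends of their leave-one-out ranges. CSF1R ran from -0.42 (without C4K13A library 1) to 0.99 (without C4K13A library 2), and NKG7 from -3.04 (without C4K13A library 1) to 0.96 (without parental library 1), with 0.40 without C4K13A library 2. Among the other values of named genes 1334 kept their side of the threshold, 181 newly passed and 101 no longer passed. Of the list medians 693 moved by less than the replicate spread and 62 by more. Genes of few counts, such as IL2RB, are limited by depth. The causes were not tested.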
